A study of Mus musculus with 28 samples.

Results

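The complement genes and the don't-eat-me pair of the mouse dorsal lateral geniculate nucleus (dLGN), the thalamic relay between retina and visual cortex, were followed from late gestation to the juvenile brain. The set held 9 genes taken by name: the C1q chains C1qa, C1qb and C1qc, the central complement genes C3 and C4b, the receptors Itgam and C3ar1, and the ligand Cd47 with its receptor Sirpa. They were 9 of the 26581 genes listed in the deposited tables, and all 9 were listed at every age. The tissue came from C57BL/6J mice of both sexes in standard housing, with no allele or treatment other than age. The ages were embryonic day 18 (E18) and postnatal days 4, 10, 16, 20, 27 and 32 (P4 to P32), with 4 libraries each and 28 in all. The series as a whole concerns the receptor Fn14, and its design compares each age with the one before it. The dLGN was cut by hand from slices, so a library holds every cell type of the piece. In such bulk RNA, fewer cells of a type and less RNA per cell cannot be told apart.

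Library totals ran from 8224851 to 40206549 reads, and between 16938 and 24149 genes were detected per library. P27 library 6 held the fewest genes and the largest share of mitochondrial reads, 21.8%. The labelled tissue carried its markers, with 8 relay-thalamus genes summing to between 1233 and 5893 CPM (read counts scaled to library depth) per library. All 4 E18 libraries and P27 library 5 held Xist at 253 CPM or more together with the Y-linked Ddx3y at 9.23 CPM or more, so these libraries may not each be a single mouse. The 4 P4 libraries held Xist with Ddx3y at no more than 0.121 CPM. Every other library with over 1 CPM of both held Xist at 9.06 CPM or less. Sex make-up and age therefore cannot be told apart between P4 and E18. Other steps were also unbalanced. Ddx3y stood at 30.3 and 57.0 CPM in P10 libraries 4 and 6, unlike any P4 library. At P16, libraries 3, 4 and 5 held it at 43.3 CPM or more, whereas at P20 library 3 alone passed 1 CPM. No fit held a term for sex. Nothing in the labels ties the library numbers in the column names to the labels' replicate numbers, so libraries are named by age and column number.

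Complement is a cascade of secreted proteins that tags surfaces for removal. C1q starts its classical route, C4 and then C3 are cleaved and bound to the target, and phagocytes read the C3 fragments through complement receptors. In the developing dLGN this route is known for the removal of retinal synapses by microglia, the resident phagocytes of the brain. CD47 on a cell binds SIRPα on a phagocyte and restrains engulfment, hence the name don't-eat-me signal.

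The C1q chains lie side by side on chromosome 4 on the minus strand, in the order C1qb, C1qc and C1qa, between 136880145 and 136898844 (GRCm38), a span of 18.7 kb with no other listed gene between them. The promoters of C1qb and C1qc are shown as those of the chains with a promoter entry at hand, and that of Itgam because it shares the motif searched. The windows shown thus all hold the motif, and those without it are named below but not shown. Each is 300 bases long, from 250 before to 50 after the gene's start, from RefSeq (GRCm38.p6), with the motif GAGGAA in capitals, or TTCCTC where it lies on the other strand. In C1qc the capitals run over the longer form GAGGAAGT, printed as its reverse complement. GAGGAAGT is the core of sites known for PU.1, the macrophage transcription factor encoded by Spi1.
C1qb, chr4:136886151-136886450, minus strand: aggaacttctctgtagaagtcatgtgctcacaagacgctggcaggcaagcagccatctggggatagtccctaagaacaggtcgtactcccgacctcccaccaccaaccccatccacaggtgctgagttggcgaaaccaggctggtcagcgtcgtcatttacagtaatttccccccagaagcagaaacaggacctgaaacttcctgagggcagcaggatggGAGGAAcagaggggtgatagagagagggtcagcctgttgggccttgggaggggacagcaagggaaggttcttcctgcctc
C1qc, chr4:136892865-136893164, minus strand: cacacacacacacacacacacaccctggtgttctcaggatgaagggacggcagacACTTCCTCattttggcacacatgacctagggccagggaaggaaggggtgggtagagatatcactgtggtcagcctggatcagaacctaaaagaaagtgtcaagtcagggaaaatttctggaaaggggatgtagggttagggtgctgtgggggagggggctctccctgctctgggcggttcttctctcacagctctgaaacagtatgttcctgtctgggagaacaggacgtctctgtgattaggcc
Itgam, chr7:128062390-128062689, plus strand: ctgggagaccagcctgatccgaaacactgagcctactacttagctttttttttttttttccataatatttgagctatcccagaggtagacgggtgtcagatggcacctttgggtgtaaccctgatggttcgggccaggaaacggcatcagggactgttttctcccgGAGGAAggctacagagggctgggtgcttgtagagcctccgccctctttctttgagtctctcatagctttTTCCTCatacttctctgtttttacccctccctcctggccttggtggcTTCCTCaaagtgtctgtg

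Read on both strands, GAGGAA occurred 1 time in the C1qb window, 1 time in C1qc and 3 times in Itgam, and 28.3% of 32851 promoters of the same length held it. The longer GAGGAAGT, which contains GAGGAA, was in the C1qc window and in 3.20% of all promoters. The windows of C3, C3ar1 and Cd47 held neither. Those of C3 and C3ar1 each held 1 TATAAA, a motif in 13.6% of promoters. The Cd47 window was rich in CpG, with 35 in its first RefSeq entry, and 93.0% of promoters held fewer. These are matches of letters only. C1qa, C4b and Sirpa are named without a promoter.

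C1qa, C1qb and C1qc encode the chains that assemble into C1q, the recognition part of the first complement complex. Each chain was lowest at E18 and highest at P27. C1qb averaged 7.26 ± 2.43, 14.1 ± 2.36, 16.6 ± 1.94, 20.2 ± 4.81, 22.7 ± 4.20, 26.7 ± 2.11 and 26.0 ± 1.61 CPM from E18 to P32 (SD, n = 4 libraries per age). C1qa averaged 18.6 ± 3.04 CPM at P27, against 4.57 ± 2.63 CPM at E18, and C1qc 20.6 ± 2.60 CPM at P27, against 5.74 ± 3.32 CPM at E18. Ordered by mean, neighbouring ages of C1qa and C1qc overlapped at every step, and those of C1qb at every step but P4 above E18.

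**Figure D1:**
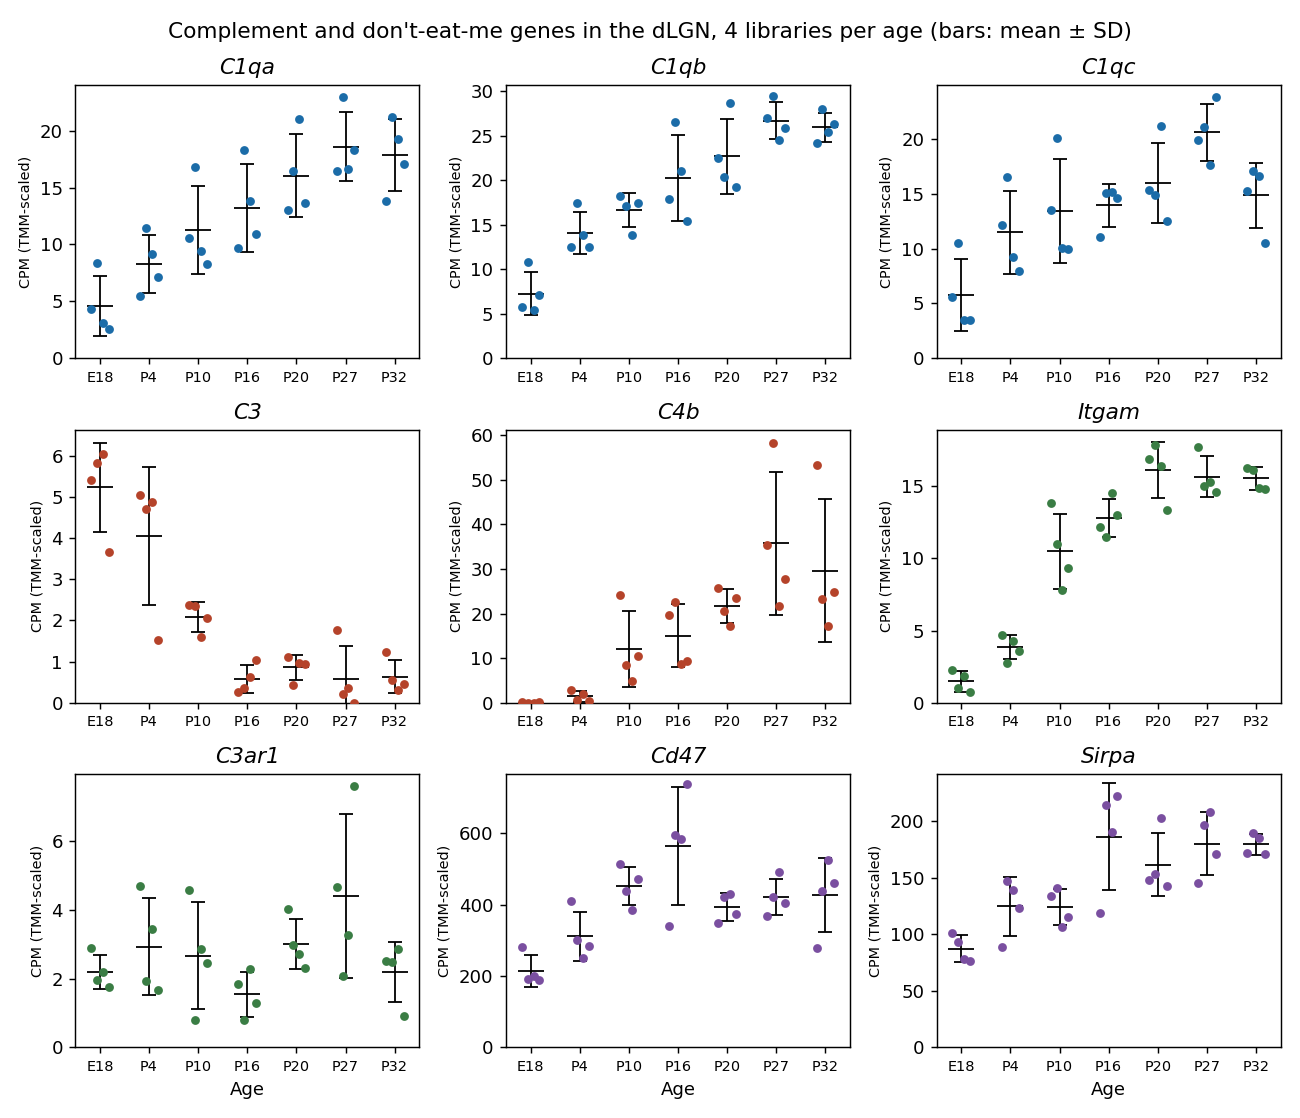
Level of each of the 9 genes in CPM (TMM-scaled, linear axes from 0) at the 7 ages; points are the 4 libraries, in column order from left to right, and bars the mean ± SD. The C1q chains, C4b and Itgam are lowest at E18, with Itgam at 16.1 CPM on average at P20 against 1.48 CPM at E18, and C3 is highest at E18, at 5.24 CPM.

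The step from E18 to P4 held the change in C1q that passed the test. C1qb had 12.5, 17.5, 13.9 and 12.5 CPM in the P4 libraries 3 to 6, against 5.78, 10.8, 5.46 and 7.04 CPM in the E18 libraries. The lowest P4 library stood above the highest E18 library. The log2 fold change was 0.94 (SE 0.26, adjusted p = 0.0481, edgeR quasi-likelihood test), and the call was lost without any single library other than E18 library 4 (adjusted p 0.0734 to 0.159) and with no filter on low counts (0.0519). C1qa had 5.50, 11.4, 9.18 and 7.15 CPM in the P4 libraries, against 4.29, 8.35, 3.09 and 2.54 CPM in the E18 libraries. C1qc averaged 11.5 ± 3.79 CPM at P4, against 5.74 ± 3.32 CPM at E18 (SD, n = 4 libraries per age). Each P4 library was above the E18 library of the same number for both genes. C1qc and C1qa had log2 fold changes of 0.99 (SE 0.38, adjusted p = 0.161) and 0.85 (SE 0.38, adjusted p = 0.236), with libraries of the ages overlapping at E18 library 4. Without that library both passed (adjusted p = 0.0184 for C1qc and 0.0300 for C1qa). In the fit of all 28 libraries C1qc passed (adjusted p = 0.0455). With the column number as a block, which was taken to pair the P4 and E18 libraries, C1qc (adjusted p = 0.000423) and C1qa (adjusted p = 0.00879) passed as well. The 20 microglial markers summed to 168 to 217 CPM at P4 and 80.0 to 110 CPM at E18, and their part in the C1q change was not tested. No C1q chain passed in the 5 later comparisons of adjacent ages. Between P32 and P27, C1qc had 15.2, 17.1, 16.6 and 10.5 CPM in the P32 libraries, against 19.9, 21.1, 17.6 and 23.9 CPM in the P27 libraries. Every P32 library lay below every P27 library, as for 0.364% of genes tested, and edgeR gave a log2 fold change of -0.45 (SE 0.21, unadjusted p = 0.0555).

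Within an age the chains varied together. After the mean of each age was removed, Pearson's r of log2(CPM + 1) over the 28 libraries was 0.74 for C1qa with C1qb, 0.77 for C1qa with C1qc and 0.63 for C1qb with C1qc. These values are descriptive, since the libraries share their age's dissection and differ in depth. Such values were not particular to the chains: C1qa with Sirpa gave 0.66 and C1qc with the mean of 20 microglial genes 0.70, whereas C1qa with Itgam gave -0.07. Per length (RPKM), C1qa stood below C1qb in 28 of 28 libraries, with a median ratio of 0.658, and C1qc below C1qb in 27 of 28, with a median ratio of 0.693. The exception was P10 library 4, at a C1qc to C1qb ratio of 1.14.

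C4b, the component cleaved by the C1 complex (gene ID 12268, chromosome 17, 34727966 to 34743905, minus strand), covered the widest range of the 9 genes. It had 94, 6, 32 and 12 reads in the P4 libraries, against 3, 0, 1 and 2 reads in the E18 libraries. That is 2.89, 0.576, 1.93 and 0.392 CPM at P4, against 0.0722, 0, 0.0447 and 0.0592 CPM at E18, where the floor of 3 reads corresponds to at most 0.134 CPM. All P4 libraries stood above all E18 libraries. The fitted log2 fold change was 4.78 (SE 0.81, adjusted p = 0.00502), a size that depends on the prior count since E18 holds 6 reads in all. Without P4 library 3 the gene fell below the count filter and was not tested.

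C4b rose again by P10, with 24.2, 8.37, 4.85 and 10.5 CPM in the P10 libraries, above every P4 library. This step gave a log2 fold change of 3.01 (SE 0.62, adjusted p = 0.00647), and the call held without each library in turn. Its size was 2.40 without P10 library 3 and 3.66 without P4 library 3. Later means were 15.1 ± 7.02 at P16, 21.7 ± 3.76 at P20, 35.7 ± 16.1 at P27 and 29.6 ± 16.1 CPM at P32, with overlapping libraries and no call between neighbouring ages. The spread at P32 and P27 came with single high libraries, 53.2 CPM in P32 library 3 and 58.3 CPM in P27 library 4. Of 10 astrocyte markers, 7 rose from E18 to P4 and 7 from P4 to P10, where 4.75% and 10.3% of all genes were called higher. Their summed level was 302 to 483 CPM at E18, 874 to 1425 CPM at P4 and 2904 to 4044 CPM at P10. It was 5328 to 6287 CPM at P16 and 4288 to 5336 CPM at P32, whereas the C4b mean was higher at P32 than at P16. Microglial markers also rose at the 2 early steps (10 and 6 of 20), as did oligodendrocyte markers (1 and 6 of 7). The part of these cell types in the C4b change was not tested. The near-identical C4a, to which reads could be assigned in either direction, stayed between 0.580 and 1.36 CPM in the mean of any age, and edgeR gave adjusted p = 0.533 over the 7 ages.

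C3, the component on which the complement routes converge (gene ID 12266, chromosome 17, 57203973 to 57228136, minus strand), took the opposite course. Its means were 5.24 ± 1.08, 4.04 ± 1.68, 2.09 ± 0.36, 0.573 ± 0.346, 0.863 ± 0.302, 0.588 ± 0.795 and 0.635 ± 0.405 CPM from E18 to P32. C3 fell from P10 to P16: the P16 libraries had 0.263, 0.360, 0.635 and 1.03 CPM, against 2.37, 2.35, 1.59 and 2.06 CPM in the P10 libraries. All P16 libraries lay below all P10 libraries, on 3 to 25 reads per library at P16 and 18 to 48 at P10. In log2 the change was -1.80 (SE 0.45, adjusted p = 0.0211). The call was lost without P10 library 3, 4 or 6 or P16 library 5 (adjusted p 0.0570 to 0.0602) and in the fit of all 28 libraries (adjusted p = 0.0895).

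Between P10 and P4, C3 had a log2 fold change of -0.94 (SE 0.38, adjusted p = 0.107). P4 library 6, at 1.53 CPM, lay apart from the other P4 libraries at 4.71 to 5.04 CPM, and without it the same comparison gave -1.23 (adjusted p = 0.0148). At P27, C3 held 0 reads in library 6, where the floor of 3 reads is 0.122 CPM, and 46 reads in library 3. The 7 meningeal fibroblast genes summed to 324 to 657 CPM at P16 and 548 to 1641 CPM at P10, overlapping ranges with none called by edgeR. The 8 border-macrophage genes summed to 35.1 to 73.7 CPM at P16 and 67.5 to 138 CPM at P10, again overlapping, with 1 of 8 called lower. Choroid plexus genes summed to 141 to 981 CPM at E18, where C3 was highest, and to 8.51 to 24.1 CPM at P4. Their sum was 4.72 to 8.76 CPM at P10 and 6.46 to 31.8 CPM at P16. No marker of these lists was at 0 in all libraries of an age from E18 to P16, and their part in the C3 change was not tested.

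Itgam encodes CD11b, the α chain of complement receptor CR3, which binds fragments of C3 (gene ID 16409, chromosome 7, 128062640 to 128118491, plus strand). It rose from E18 to P4 and again from P4 to P10. It had 4.70, 2.78, 4.29 and 3.59 CPM in the P4 libraries, against 2.24, 1.05, 1.88 and 0.740 CPM in the E18 libraries, with no overlap. The log2 fold change was 1.36 (SE 0.36, adjusted p = 0.0427), and the call was lost without E18 library 4, 5 or 6 or P4 library 3, 5 or 6 (adjusted p 0.0860 to 0.110), with total-count scaling (0.0812) and with no filter (0.0532). From P4 to P10 the change was 1.44 (SE 0.25, adjusted p = 0.00228), with 13.9, 11.0, 7.83 and 9.32 CPM in the P10 libraries. That call held without each library in turn (highest adjusted p 0.0111). Means then ran 12.8 ± 1.29, 16.1 ± 1.94, 15.7 ± 1.40 and 15.5 ± 0.77 CPM from P16 to P32, with no call between neighbouring ages.

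Itgb2, the β chain that pairs with CD11b, had means of 0.372, 0.908, 1.77, 2.44, 3.26, 5.40 and 2.71 CPM over the same ages. Its log2 fold changes were 1.26 between P4 and E18 (SE 0.36, adjusted p = 0.0598) and 0.97 between P10 and P4 (SE 0.37, adjusted p = 0.0896), so it did not pass at either step. The first passed with the block on column number (adjusted p = 0.0249), with DESeq2 (0.0484) and in the fit of all 28 libraries (0.0330). Over the whole course it rose, with a log2 fold change of 2.82 for P32 over E18 (SE 0.36, adjusted p = 2.12e-07).

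C3ar1 encodes the receptor of the small fragment C3a (gene ID 12267, chromosome 6, 122847140 to 122856157, minus strand). It was low and scattered, with its highest mean, 4.41 ± 2.38 CPM, at P27 and its lowest, 1.55 ± 0.66 CPM, at P16. It was the single gene of the 9 that did not pass the test over the 7 ages (adjusted p = 0.139). The P20 libraries, at 2.31 to 4.03 CPM, lay above the P16 libraries, at 0.791 to 2.30 CPM, as for 0.864% of genes tested. The log2 fold change was 0.95 (SE 0.39), whose unadjusted p of 0.0318 became 0.993 after adjustment. At P27 the highest value, 7.61 CPM, was that of library 6.

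Cd47 encodes a membrane protein found on most cells (gene ID 16423, chromosome 16, 49855248 to 49915010, plus strand). It was the most abundant of the 9 per length, at 73.0 ± 17.8 RPKM at P32. In CPM its means were 215 ± 44.9, 311 ± 69.2, 452 ± 54.0, 564 ± 164, 392 ± 39.2, 421 ± 50.6 and 426 ± 104 from E18 to P32. It had 513, 439, 385 and 472 CPM in the P10 libraries, against 410, 301, 250 and 283 CPM in the P4 libraries, where P4 library 3 overlapped P10. The log2 fold change was 0.55 (SE 0.17, adjusted p = 0.0445). The call was lost with total-count scaling (adjusted p = 0.110), with no filter (0.0560), in the fit of all 28 libraries (0.104), in the authors' deposited table (0.0535) and without P4 library 4, 5 or 6 or P10 library 3, 4 or 6 (0.0710 to 0.127). With the block on column number it passed (adjusted p = 0.00182).

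The step from E18 to P4 gave Cd47 a log2 fold change of 0.52 (SE 0.19, adjusted p = 0.139), and 0.51 with the block (adjusted p = 0.00208). E18 library 3, at 282 CPM, lay apart from the other E18 libraries at 188 to 200 CPM. The value at P16 ran from 341 to 736 CPM, the widest range of any age. Between P20 and P16 the log2 fold change was -0.52 (SE 0.23), with an unadjusted p of 0.0403 and an adjusted p of 0.993.

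Sirpa encodes SIRPα, the inhibitory receptor of CD47 (gene ID 19261, chromosome 2, 129592569 to 129632228, plus strand), found on microglia and also on neurons. Its means were 87.1 ± 12.1, 124 ± 25.8, 124 ± 16, 186 ± 47.0, 161 ± 27.8, 180 ± 28.1 and 179 ± 9.17 CPM from E18 to P32. It passed in no comparison of adjacent ages. The closest was P16 over P10, with a log2 fold change of 0.58 (SE 0.20, adjusted p = 0.0910). That step passed without P16 library 3 (0.74, adjusted p = 0.00882) and in the fit of all 28 libraries (0.59, adjusted p = 0.0336). With the block, P4 over E18 passed too (0.48, adjusted p = 0.0248). Per length, the mean ratio of Cd47 to Sirpa was highest at P10. The means were 2.00 ± 0.25, 2.18 ± 1.06, 2.98 ± 0.34, 2.44 ± 0.19, 1.99 ± 0.23, 1.91 ± 0.13 and 1.92 ± 0.44 from E18 to P32 (SD, n = 4 libraries per age). However, the highest P4 library, at 3.75, lay above every P10 library, at 2.52 to 3.33. The P16 libraries, at 2.25 to 2.69, overlapped those of P10. From E18 to P4, where neither Cd47 nor Sirpa was called without the block, 5 of 8 neuronal markers were called higher. The share of all genes called higher there was 4.75%. The markers summed to 3563 to 4418 CPM at P4 and 2573 to 3177 CPM at E18. From P4 to P10, where Cd47 was called, 3 of the 8 were called higher and 1 lower. Their sum at P10 was 3770 to 4410 CPM, within the range of P4. The part of these markers in the changes of the pair was not tested.

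Counted over the set, 3 of 9 genes rose from E18 to P4 (C1qb, C4b and Itgam), where 7.87% of 18797 genes tested were called and 4.75% were called higher. The P4 libraries of all 3 lay above those of E18, as for 8.52% of all genes. The block on column number called 7 of the 9, all higher, the additional ones being C1qa, C1qc, Cd47 and Sirpa. The share of all genes called with the block is not given, so the 7 have no background beside them. With the block the calls on the microglia list went from 10 to 16. From P4 to P10, 3 of 9 rose (C4b, Itgam and Cd47), where 18.4% of all genes were called and 10.3% were called higher. The libraries of C4b and Itgam did not overlap, as for 12.3% of all genes in that direction. From P10 to P16, 1 of 9 fell (C3), where 11.9% of all genes were called and 5.65% were called lower, and the libraries of 8.76% of genes lay lower without overlap. The median log2 fold change of the 9 was 0.85, 0.25 and 0.28 at these steps in turn, beside -0.02, -0.01 and 0.01 over all genes tested. In each of the 3 comparisons after P16 edgeR called 0 of the 9 genes and 0% of all genes tested. At an unadjusted p under 0.05 there were 2 of the 9 for P20 over P16, 1 for P27 over P20 and 0 for P32 over P27, where C3 failed the count filter and 8 were tested. DESeq2 and limma-voom also called 0 of the 9 at each of these steps.

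Ordered from the lowest to the highest mean, most neighbouring ages of a gene overlapped. Apart from C1qb, neighbours stood clear of each other for C4b and Itgam (E18 below P4, and P4 below P10), for Itgam at P16 below P32, for C3 at P20 below P10, and for Sirpa at E18 below P10. For C3ar1 and Cd47, as for C1qa and C1qc, every pair of neighbours overlapped.

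**Figure D2:**
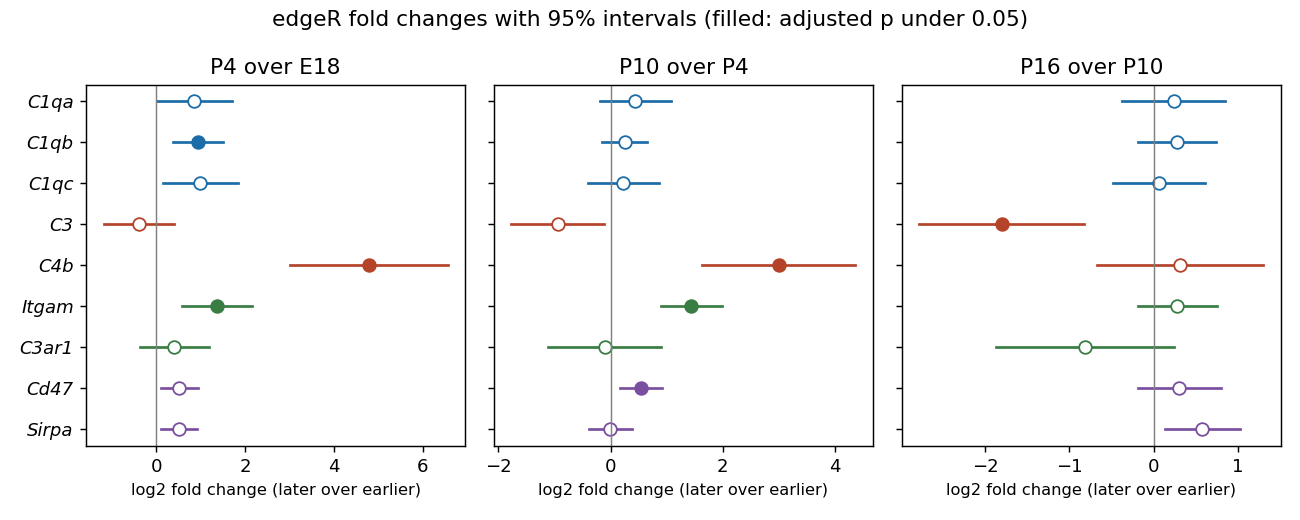
Log2 fold change, later over earlier age, of the 9 genes in the comparisons of P4 with E18, P10 with P4 and P16 with P10 (x axes differ in range); lines are 95% intervals from edgeR and filled points have an adjusted p under 0.05. C4b stands farthest to the right in the first panels, at 4.78 and 3.01, and C3 farthest to the left in the last, at -1.80.

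Across longer spans, fitted in 1 model of the 28 libraries, 8 of 9 genes varied with age, where 51% of 19949 genes did. From E18 to P32, 7 rose and C3 fell, where 47.5% of all genes were called, 23.4% of all higher and 24.1% lower. The rises in log2 were 9.03 for C4b (SE 0.77, a size that again depends on the prior count), 3.33 for Itgam (SE 0.27), 1.93 for C1qa (SE 0.31), 1.80 for C1qb (SE 0.20), 1.34 for C1qc (SE 0.30), 1.00 for Sirpa (SE 0.18) and 0.94 for Cd47 (SE 0.21), with a largest adjusted p of 0.000548. C3 changed by -3.04 (SE 0.67, adjusted p = 0.000452). C3ar1 gave -0.05 (SE 0.46). The 8 calls held without each of the 28 libraries in turn.

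From E18 to P10, 7 of 9 genes rose, where 32.3% of all genes were called and 16.2% were called higher. C1qa gained 1.27 in log2 (SE 0.31), C1qb 1.17 (SE 0.20), C1qc 1.19 (SE 0.30), Itgam 2.77 (SE 0.26) and Cd47 1.03 (SE 0.21). Sirpa passed at the margin (0.47, SE 0.18, adjusted p = 0.0495), a call lost with total-count scaling (adjusted p = 0.204), with limma-voom (0.0538) and without 8 of the 28 libraries (0.0507 to 0.0987). From P10 to P32, 2 of 9 rose, where 19.2% of all genes were called and 9.48% were called higher. These were C1qb (0.63, SE 0.20, adjusted p = 0.0225) and Sirpa (0.53, SE 0.18, adjusted p = 0.0418). Neither passed with total-count scaling (adjusted p = 0.0578 for C1qb and 0.0978 for Sirpa). C1qb did not pass without P10 library 5 or P32 library 4, nor Sirpa without P10 library 5 or 6 or P32 library 4, 5 or 6. DESeq2 called 4 of the 9, adding C3 (adjusted p = 0.0297) and C4b (0.0475), and limma-voom 5, adding C1qa (0.0482), C4b (0.0209) and Itgam (0.0376).

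Microglial markers rose over the same ages. The 20 genes of the list, which holds no member of the set, summed to 94.7 ± 13.3, 200 ± 22.4, 308 ± 20.1, 366 ± 29.7, 380 ± 55.4, 410 ± 31.8 and 378 ± 44.7 CPM from E18 to P32. Of the 20, 10 rose from E18 to P4 and 6 from P4 to P10. With the block 16 and 13 were called, counted in either direction. None was at 0 in all libraries of an age. Markers of blood monocytes and neutrophils stayed at or under 2.16 CPM in sum in every library, and none passed the count filter.

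Then 6 of the 9 genes, those known from microglia, were set against that list. The mean log2 level of the 20 genes was subtracted from that of each gene per library (pseudocount 0.5 CPM). C1qb stood 1.10 ± 0.32 above the list at E18, 0.80 ± 0.15 at P10 and 1.19 ± 0.15 at P32. Itgam stood at -0.89 ± 0.54 relative to the list at E18, -0.64 ± 0.34 at P4 and 0.14 ± 0.25 at P10. The P10 over P4 difference of 0.78 for Itgam had no overlap between libraries. C3ar1 stood at -2.51 ± 0.43 at P16 and at -0.39 ± 0.27 at E18. Sirpa was 4.20 ± 0.42 above the list at P4, against 4.64 ± 0.12 at E18. Over 6 genes and 6 comparisons, 0 of 36 differences passed an exact two-sided permutation test after Benjamini-Hochberg adjustment. With 4 against 4 libraries no difference could pass this adjustment unless many of the 36 stood at the smallest possible p together. The count of 0 therefore does not show that the genes kept a fixed level relative to the list. Itgam for P10 over P4, C3ar1 for P20 over P16 and Sirpa for P4 over E18 each had an unadjusted exact p of 0.0286 (adjusted exact p = 0.343), the smallest that 4 against 4 libraries allow. No C1q chain was among them, which does not show that the chains kept pace with the list.

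**Figure D3:**
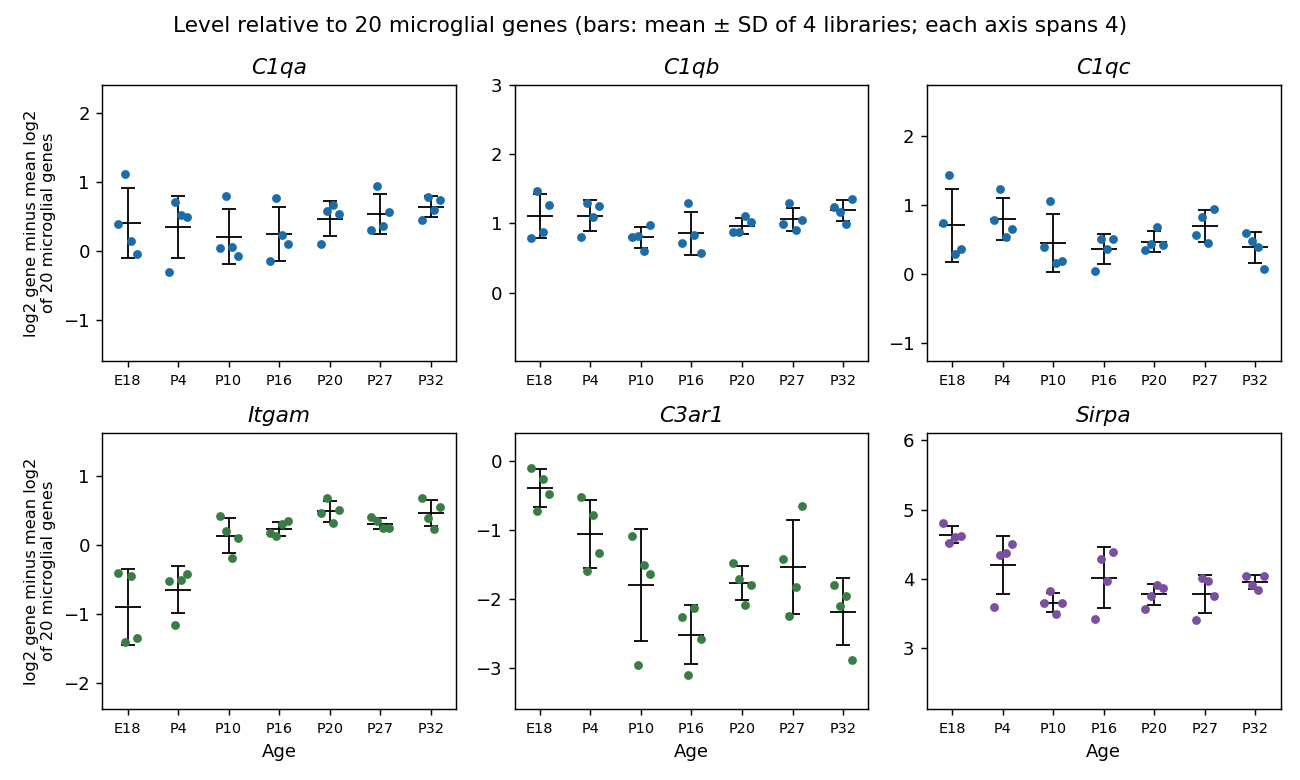
Log2 level of 6 genes minus the mean log2 level of 20 microglial genes in each library, at the 7 ages; points are libraries, bars the mean ± SD, and every axis spans the same length. The means of C1qb run from 0.80 at P10 to 1.19 at P32. Itgam lies at 0.14 on average at P10 and -0.89 at E18, and C3ar1 reaches -2.51 at P16.

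Other genes of the pathway, taken from lists of complement proteins, receptors, regulators, inhibitory signals and engulfment receptors, were counted in the same comparisons. From E18 to P4, 14 of 64 tested genes of these lists were called, 13 of them higher, where 7.87% of all genes were called and 4.75% were called higher. Engulfment genes made up 6 of those rises, out of 20 tested. With the block 14 were called, counted in either direction and with no share of all genes to set beside them. Mertk, a receptor through which phagocytes bind exposed phosphatidylserine, rose to 10.9 ± 2.55 CPM at P4, against 3.55 ± 1.06 CPM at E18 (log2 fold change 1.60, SE 0.27). Siglech, a microglial lectin that signals through the adaptor DAP12 and stands in both the inhibitory-signal and the microglia list, rose by 1.71 (SE 0.30), and C2, the protease that joins C4 in the classical convertase, by 1.57 (SE 0.34). The C2 call was lost without E18 library 5 or 6 or P4 library 3 or 6. Among complement regulators 2 of 16 rose, and 7 were called with the block in either direction. Cd24a, a ligand of the inhibitory lectin Siglec-G on leukocytes, fell to 61.7 ± 16.4 CPM at P4, against 341 ± 204 CPM at E18 (-2.48, SE 0.37).

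From P4 to P10, 17 of 59 tested genes of the lists were called, 11 of them higher, where 18.4% of all genes were called and 10.3% were called higher. Among the regulators, 3 of 15 rose, and 5 were called with the block in either direction. Clu, a secreted inhibitor of the terminal complement complex, rose by 1.10 (SE 0.17). Cd55, which speeds the decay of complement convertases on cell surfaces, rose to 31.4 ± 3.12 CPM at P10, against 14.4 ± 2.70 CPM at P4 (1.13, SE 0.17, adjusted p = 0.00119). Cr2, the receptor of C3d, rose by 1.18 (SE 0.37, adjusted p = 0.0442), a call lost with total-count scaling (0.0769), limma-voom (0.0553), the fit of all 28 libraries (0.183) and without P4 library 4, 5 or 6 or P10 library 3 or 5. Cd24a fell again (-2.75, SE 0.28). Thbs1, a secreted ligand of CD47, fell to 4.62 ± 1.45 CPM at P10, against 22.4 ± 2.30 CPM at P4 (-2.26, SE 0.24). Cd200, a neuronal ligand of an inhibitory microglial receptor, fell by 0.97 (SE 0.15) on the log2 scale.

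From P10 to P16, 5 of 60 were called, 3 of them higher, where 11.9% of all genes were called and 5.65% were called lower. The total was thus not above the background, and the share of all genes called higher is not given at this step. Cd55 fell to 5.55 ± 1.62 CPM at P16, against 31.4 ± 3.12 CPM at P10, with no overlap of libraries (-2.50, SE 0.23, adjusted p = 3.24e-05). Cd200 fell again, to 59.9 ± 2.16 CPM at P16, against 113 ± 19.4 CPM at P10 (-0.93, SE 0.16). The rises were engulfment genes, out of 20 tested. These were Megf10, an astrocytic receptor that binds C1q (1.01, SE 0.20), Adgrb1, a receptor of phosphatidylserine (0.87, SE 0.18), and Tyro3, a receptor tyrosine kinase related to Mertk (0.64, SE 0.16, lost with total-count scaling and without P10 library 3 or 5). After P16, edgeR called 0 of 63 tested genes of these lists at each step, with 3, 1 and 2 at an unadjusted p under 0.05 and 0 by DESeq2 or limma-voom.

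**Figure D4:**
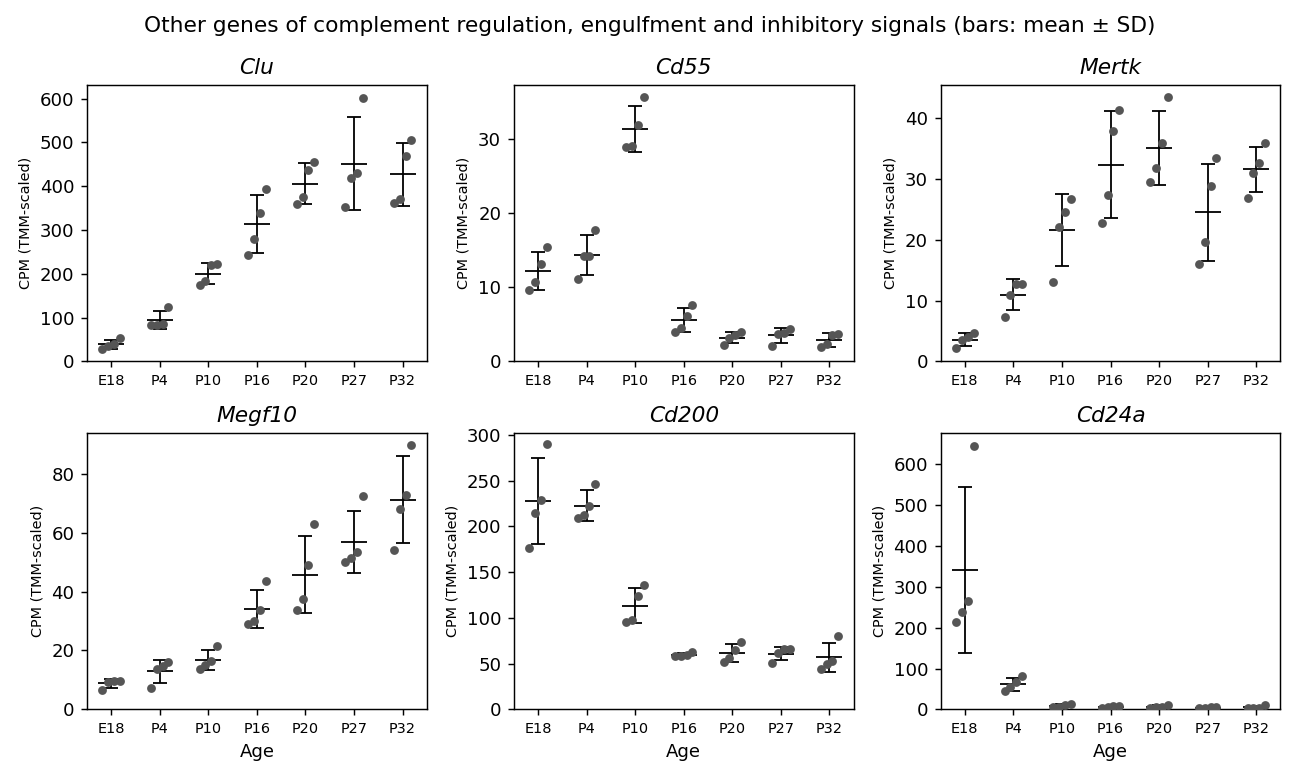
Level in CPM (TMM-scaled, linear axes from 0) of 6 genes of complement regulation, engulfment and inhibitory signals at the 7 ages; points are the 4 libraries, in order of level, and bars the mean ± SD. Cd55 peaks at P10 at 31.4 CPM, Clu and Megf10 reach 427 and 71.2 CPM at P32, and at P32 no library exceeds 80.2 CPM for Cd200 or 9.77 CPM for Cd24a.

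Over the whole span from E18 to P32, 33 of 70 tested genes of the lists were called, where 47.5% of all genes were, so the total was near the background. Of the 33, 27 were higher, where 23.4% of all genes were called higher. The engulfment list had 12 rises among 20 tested genes and a median log2 fold change of 1.07, beside -0.04 over all genes tested. Complement regulators had 6 rises and 2 falls among 16. Clu gained 3.41 (SE 0.22), Mertk 3.09 (SE 0.28) and Megf10 2.96 (SE 0.24), whereas Cd24a changed by -6.14 (SE 0.46), Cd55 by -2.12 (SE 0.27) and Cd200 by -2.04 (SE 0.18). The inhibitor of the C1 proteases, Serping1, averaged 5.14 ± 2.06 CPM at P32, against 13.1 ± 2.29 CPM at E18 (-1.38, SE 0.33, adjusted p = 0.00112). The C1 proteases themselves stayed low, with C1s1 at no more than 1.11 CPM and C1ra at no more than 0.470 CPM in the mean of any age. From P10 to P32, Cd59a, which blocks the terminal complement complex, rose by 2.08 (SE 0.34), and Cd93, a membrane receptor once described as a C1q receptor, changed by -1.52 (SE 0.42), a call lost without P10 library 3 (adjusted p = 0.103).

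Genes with the course most like each of the 9 were sought among 12623 genes by Pearson's r of log2(CPM + 1) over the 28 libraries, which share age, depth and dissection. Nearest to C4b were Myoc (0.97), Synpo (0.96) and Phkg1 (0.96), and nearest to Itgam were Kcnj10 (0.98), Unc80 (0.98) and Inpp5j (0.97). C1qb lay nearest to Fbxo2 (0.95), Clu (0.95) and Sec14l2 (0.93), C1qa to Aldoa, Cpe and Mid1ip1 (each 0.93), and C1qc to Chchd10 (0.90), Sec14l2 (0.90) and B2m (0.89). C3 lay nearest to Has3 (0.94), Fnbp1l (0.93) and H13 (0.92), Cd47 to Atxn1 (0.94), Lsamp (0.94) and Raver2 (0.93), and Sirpa to C2cd2l (0.93), Arhgap44 (0.93) and Cpe (0.92). C3ar1 had no close neighbour, with Ppwd1 at 0.77 the nearest.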

How the data were processed

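RNA was measured by sequencing of rRNA-depleted total RNA, per the labels' protocols. The submitters' processing notes list the GRCm38 (mm10) build and the tools BWA and edgeR 3.14.0. The counter, annotation and use of strand are not stated there. The authors deposited 12 tables, an up and a down list for each pair of adjacent ages, with whole read counts per gene and library. The fold ratio and the p-values the authors deposited (later over earlier age) were used in 1 alternative. A further 96 density columns were not used, and 30 symbols were repaired through the gene ID. RPKM rests on the gene lengths the authors deposited.

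Lists of a pair were merged by gene ID and its 8 libraries tested by edgeR's quasi-likelihood F test (edgeR 4.0.16, R 4.3.3), two-sided, after filterByExpr and TMM scaling. Benjamini-Hochberg adjustment ran over all genes tested, with calls at an adjusted p under 0.05. Longer spans came from 1 fit of 28 libraries over the 22200 genes in every table, of which 19949 passed the filter. CPM and RPKM are TMM-scaled over the 28 libraries. Floors (3 reads) cover counting error only. The labels describe 4 separate mice per age, but the E18 libraries and P27 library 5 may not each be 1 mouse, so n counts libraries. The tests were tried on simulated counts first. The 9 genes, the gene lists and the tests were chosen with earlier results of these data known.

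Deviations from the age means correlated between same-numbered columns by 0.43 to 0.76 for P4 with E18 and by 0.22 to 0.59 for P10 with P4 over 16617 genes. Each was above 0.1, so the number was taken to pair those libraries. Some differently numbered columns also passed 0.1, up to 0.36 for P4 with E18 and 0.28 for P10 with P4, so the pairing is uncertain. Elsewhere at least 1 same-numbered pair fell below 0.1. Shares of all genes called are those of the fits without the block. Named were the 9 genes; per comparison, the 3 called list genes of largest change in each direction, from a mean of 1 CPM; Itgb2, C1s1, C1ra and Serping1; and the 3 genes nearest in course to each of the 9, from a mean of 5 CPM. C4a was added as the paralog of C4b. Alternatives were relative log expression and total-count scaling, no filter, DESeq2 1.42.0, limma-voom (limma 3.58.1), 1 fit of all libraries, the block, each library left out and the authors' adjusted p.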

Additional observations from a re-analysis of the deposited data

Results flagged for a closer look

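Among 63 groups of 4 libraries (9 genes at 7 ages), 3 held a library far from the other 3, judged by the gap to its nearest neighbour over the group's range (Dixon's 95% criterion); chance flags about 1 group in 20. C1qc at P16 had 11.1 CPM in library 3, against 14.6 to 15.1 CPM in the others. C3 at P4 had 1.53 CPM in library 6, against 4.71 to 5.04 CPM. Cd47 at E18 had 282 CPM in library 3, against 188 to 200 CPM.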

How the results depend on the processing

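The number of the 9 genes called for P4 over E18 was 3, but 1 with no filter on low counts and 7 with the replicate block on column number. It was 2 with total-count scaling, 4 in the fit of all 28 libraries, and 0 to 4 with each library left out. For P10 over P4 it was 3, and 2 to 3 without single libraries. That count was 2 with total-count scaling, with no filter, in the fit of all 28 libraries and by the authors' adjusted p. For P16 over P10 it was 1, and 0 to 2 without single libraries. For P32 over P10 it was 2, but 0 with total-count scaling, 6 with the replicate block (also C1qa, C3, C4b and Itgam, adjusted p 0.00593 to 0.0411), 4 with DESeq2, 5 with limma-voom and 0 to 4 without single libraries. For P10 over E18 it was 7, but 6 with total-count scaling and 6 to 8 without single libraries. The counts over all ages and for P32 over E18 stayed at 8, and those after P16 at 0, without each library in turn, also without P27 library 6. The count for all ages was 9 with the replicate block, where C3ar1 passed (adjusted p = 0.0465). This block result and that for P32 over P10 span ages whose column numbers did not pair every library.

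Sign changes concerned small values, none of them called. The log2 fold change of Sirpa for P10 over P4 was near 0, and 0.025 with limma-voom and 0.017 with the replicate block. That of C1qc for P16 over P10 was 0.06, and -0.016 with total-count scaling. For P32 over P27, total-count scaling gave 0.011 for C1qa and 0.039 for C1qb, and the fit of all libraries gave -0.022 for Itgam and -0.015 for Sirpa.

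With 1 library left out at a time, further uncalled log2 fold changes changed sign. For P10 over P4 the values ran from -0.027 to 0.44 for C1qc, -0.48 to 0.23 for C3ar1 and -0.14 to 0.092 for Sirpa. For P16 over P10 the values ran from -0.066 to 0.32 for C1qc. For P27 over P20 the values ran from -0.000776 to 0.13 for Cd47 and -0.16 to 0.35 for Serping1. For P32 over P27 the values ran from -0.14 to 0.078 for C1qa, -0.074 to 0.033 for C1qb, -0.72 to 0.11 for C4b, -0.043 to 0.065 for Itgam, -0.079 to 0.17 for Cd47 and -0.087 to 0.079 for Sirpa. For P32 over E18 the values ran from -0.14 to 0.27 for C3ar1. For P10 over E18 the values ran from -0.063 to 0.59 for C3ar1. For P32 over P10 the values ran from -0.57 to 0.076 for C3ar1 and -0.19 to 0.082 for Cd47.

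For P16 over P10, 5 genes of the pathway lists were called, and 10 with DESeq2. After P16 the column numbers did not pair every library, and the replicate block left those counts at 0; for P16 over P10 it left the count at 1. The comparison with the microglia list gave 0 of 36 with the summed CPM, a pseudocount of 1 and total-count scaling. The same smallest p limited these settings, so they add no support. Leaving out libraries was not run there, since fewer libraries raise that limit further. The cause of these changes was not tested. Counts limit C3 after P10 (0 to 46 reads per library), C4b at E18 (0 to 3) and C3ar1 (6 to 187).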
